A study of Danio rerio with 4 samples.

Results

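Integrins, laminins and a set of glycoproteins of the extracellular matrix were followed in whole zebrafish embryos with 0 or 3.9 µM copper, at 24 and at 96 hours post fertilization (hpf). Genes were taken by symbol. They comprise the integrin alpha and beta chains and 2 integrin-named genes that do not encode receptor chains, the laminin alpha, beta and gamma chains, nidogens, fibronectins, elastins and fibrillins, thrombospondins, matrilins and hyaluronan link proteins. Of 77 such genes in the RefSeq table, 43 had a named probe, with 79 probes in all. A gene was counted as measured when a probe was well above background on at least 2 of the 4 arrays, and this held for 39 genes and 68 probes, out of 12332 genes and 36026 probes measured in all. The elastin elnb (3 probes), the integrin chains itgb1a and itgb3b (1 probe each) and the laminin chain lama2 (2 probes) were not well above background on any array. The other 34 genes, among them fbn1, fbn2a, itga4, itgb2, lama3, nid2a and thbs1b, had no probe named for them and are not analysed here.

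Integrins are receptors made of 1 alpha and 1 beta chain that bind matrix proteins outside the cell and the actin cytoskeleton inside it. Laminins are trimers of an alpha, a beta and a gamma chain that form the sheet of the basement membrane, and nidogen links that sheet to the network of collagen IV. Fibronectin forms fibrils that bind integrins through an RGD motif. Matrilins are adaptor proteins of cartilage and other matrices that join collagen fibrils to proteoglycans. Link proteins hold proteoglycans of the aggrecan family on hyaluronan. In zebrafish the laminin chains lama1, lamb1a and lamc1 are known for their part in notochord formation, and fibronectins for somite boundaries and heart formation.

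The 4 one-colour arrays formed 4 groups of 1 array, namely embryos labelled control (0 µM copper) and embryos labelled copper (3.9 µM) at each age. Neither the strain nor the number of embryos behind an array is given in the sources used here. Groups follow the sample labels, but at both ages the scanner files carry the opposite treatment in their names, and so does the authors' deposited table. All 5555 probes of that table at 24 hpf and all 2964 at 96 hpf have the sign opposite to the one computed from the labels. Arrays are therefore called "labelled copper" and "labelled control" throughout, and every sign of a difference within an age turns should the file names hold. Differences between ages do not depend on this. In RNA from whole embryos, fewer cells of a type and less RNA per cell cannot be told apart.

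Between 33531 and 36468 probes (76.9% to 83.6%) were well above background on an array, and no spot was saturated. The 24 hpf array labelled copper was the brightest, with a median signal of 366.8 against 162.3 to 194.5 on the other 3 arrays. All 7 muscle, 6 epidermis and 3 heart markers measured were well above background on every array of these whole embryos, as were the 3 markers of the hatching gland. The hatching gland markers were far apart at 96 hpf. All 3 were lower in the array labelled copper there, by a median of 4.24 on the log2 scale, while all 4 measured exocrine pancreas markers were higher by a median of 5.29 and all 4 photoreceptor markers by a median of 1.52. The part of these shifts in the 96 hpf differences given below was not tested.

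Levels below are normalized intensity on the log2 scale of the brightest detected probe of a gene. Where 4 values are listed they stand in the order 24 hpf labelled control, 24 hpf labelled copper, 96 hpf labelled control and 96 hpf labelled copper. Probes differ in how brightly they read. Outside the summed levels of marker genes, in which brighter probes weigh more, a level of one gene is therefore not set against that of another.

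The comparison of ages asks which of these matrix and adhesion genes differed between embryos after a day and older larvae. Cartilage matrilins showed the widest differences, with matn3a 392-fold and matn1 187-fold higher at 96 hpf. Fibronectin fn1b, the link protein hapln4, the thrombospondin thbs4a, the laminin chain lamb1b and the integrin chains itga2b and itgb1b.2 were higher as well. The fibronectin receptor chain itga5, the integrin chain itgb1b and the laminin chain lama1 were lower. By limma over the 4 arrays, with age and copper label in the fit and Benjamini-Hochberg adjustment over all 36026 probes, 10 members rose (17.3% of all genes did), 3 fell (15.1% of all genes) and 26 were not called at an adjusted p under 0.05. Among the members that rose, itga2b passed the detection filter only through the 96 hpf arrays. The median difference of the members was 0.40, against -0.10 for all genes. Under scaling by the 75th percentile these medians were 0.63 and -0.001, and the members' counts were the same 10 and 3. At an unadjusted p under 0.05 there were 16 members (41.0%, against 43.9% of all genes). By direction, 13 were higher (33.3%, against 21.9% of all genes) and 3 lower (7.69%, against 22.0%). The difference had the same sign in the labelled control arrays and in the labelled copper arrays for 30 of 39 members (76.9%, against 79.8% of all genes). Neither this share nor the 41.0% over both directions stood above that of all genes. The fit leaves 1 residual degree of freedom, namely how far the change by copper label differs from one age to the other. Most of the variance behind an SE or p-value is borrowed by limma from other probes of like signal, with a median of 9.19 prior degrees of freedom. It is therefore not the spread of that gene alone. Nothing says that the arrays held separate pools of embryos, so the p-values of the fit reflect no more than how these arrays vary.

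**Figure D1:**
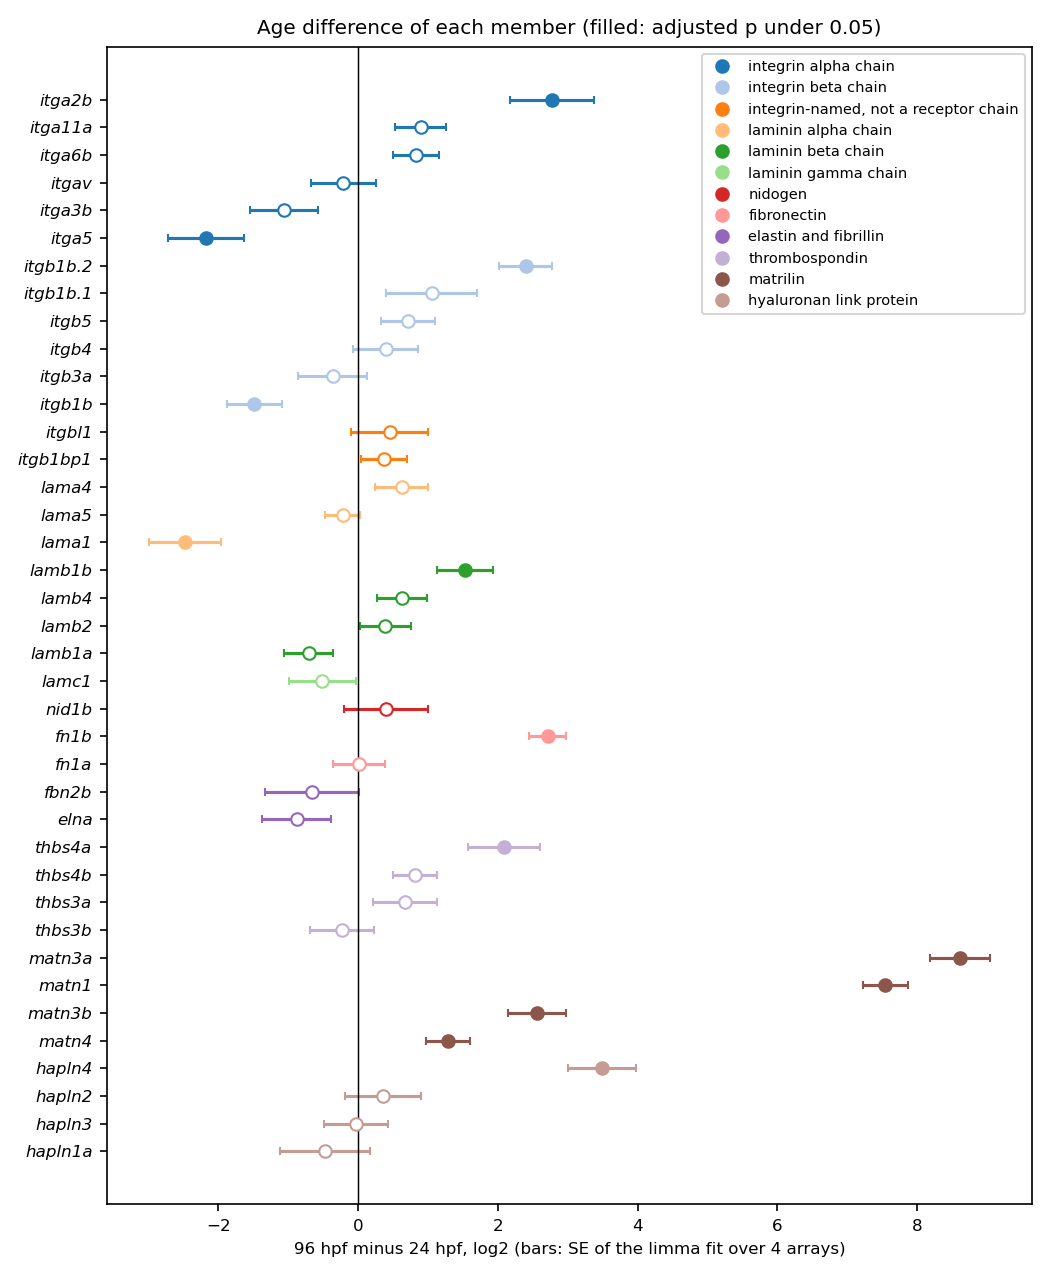
Difference between 96 and 24 hpf (log2, x axis) of the 39 measured members, grouped by the role of the gene product. Points are limma estimates over 4 arrays with their SE as bars, and filled points are the 13 members with an adjusted p under 0.05. The 4 matrilins are all filled and lie to the right, from 1.29 for matn4 to 8.62 for matn3a.

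Matrilins were the one group of which all measured members rose, 4 of 4 (17.3% of all genes did). The groups held from 1 to 6 measured members. Matn3a, a matrilin known from cartilage, read 5.12, 5.17, 13.64 and 13.87. The level at 24 hpf was low on both arrays, and the 96 hpf arrays lay 8.62 ± 0.43 (SE) higher, or 392-fold (adjusted p = 9.24e-07 by limma). Its other 2 detected probes gave 6.66 and 8.99, the latter not well above background at 24 hpf and therefore a rise of at least 138-fold. That last probe passed the detection filter only through the 96 hpf arrays, where it is high. Under normexp background correction the difference of the brightest probe was 7.05. Matn1, cartilage matrix protein, read 9.23, 8.80, 16.52 and 16.60, so that each age had closely matched arrays far from those of the other age. It rose by 7.54 ± 0.32 (187-fold, adjusted p = 3.51e-07), and by 7.83 and 8.06 on its other probes. The paralog matn3b read 9.45, 8.91, 11.63 and 11.85 and rose 5.90-fold (2.56 ± 0.41, adjusted p = 0.00136), with 2.38 on its second probe. Matn4, a matrilin of wider distribution in vertebrates, read 12.78, 13.17, 14.52 and 14.01. The ages did not overlap, and the difference was 2.44-fold (1.29 ± 0.31, adjusted p = 0.0112). It lost its call without the 24 hpf array labelled control (adjusted p = 0.0591) and without the trend in limma's variance (adjusted p = 0.0730).

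Hyaluronan link proteins did not share one direction, with 1 of 4 measured members called, as higher (17.3% of all genes were). Hapln4, a link protein of the brain in mammals, read 6.16, 5.61, 9.20 and 9.56. Both 96 hpf arrays lay well above both 24 hpf arrays, by 3.49 ± 0.49 or 11.3-fold (adjusted p = 0.000611 by limma), and its second probe gave 3.02. Under normexp the difference was 2.36. Hapln2, also a brain link protein in mammals, was dim. Its brightest probe read 4.67, 4.63, 4.72 and 5.30, of which the 24 hpf array labelled control was not well above background, and the difference of 0.36 was not called (adjusted p = 0.659). A dimmer probe was well above background at 96 hpf alone, through which it passed the detection filter, and was at least 2.04-fold higher there. The mean of both probes, which takes in that dimmer one, differed by 1.75 and was called (adjusted p = 0.0305 by limma). Hapln3 differed by -0.03 between ages. Hapln1a, the cartilage link protein in mammals, read 6.80, 8.39, 7.70 and 6.55, so that its ages overlapped (-0.47 ± 0.64, adjusted p = 0.621).

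The partners of these proteins in cartilage and hyaluronan matrix were read from a list chosen with earlier results of these data known. Of 31 listed genes 17 were measured, 13 rose (17.3% of all genes), 1 fell (15.1% of all genes) and their median difference was 2.44. The brain lectican bcan rose by 5.70, the small proteoglycan bgna by 4.27, chondroadherin (chad) by 4.03 and the cartilage protein ucmaa by 3.76, whereas the hyaluronan synthase has2 fell by 1.85. Among 6 measured cartilage markers, of which ucmaa belongs to both lists, col9a1a rose by 5.26, ucmaa by 3.76 and col11a2 by 2.01. The summed level of the 6 markers was 12.30 and 14.50 at 24 hpf and 15.00 and 14.46 at 96 hpf. On every array the largest reading in this sum was that of col2a1a, at 11.76, 14.38, 14.52 and 13.90. Col2a1a was not called by age (1.14, adjusted p = 0.164 by limma). The cartilage transcription factors sox9a and sox5 were not called, at -0.66 and -1.43. The part of the number of cartilage cells in the matrilin differences was not tested.

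**Figure D2:**
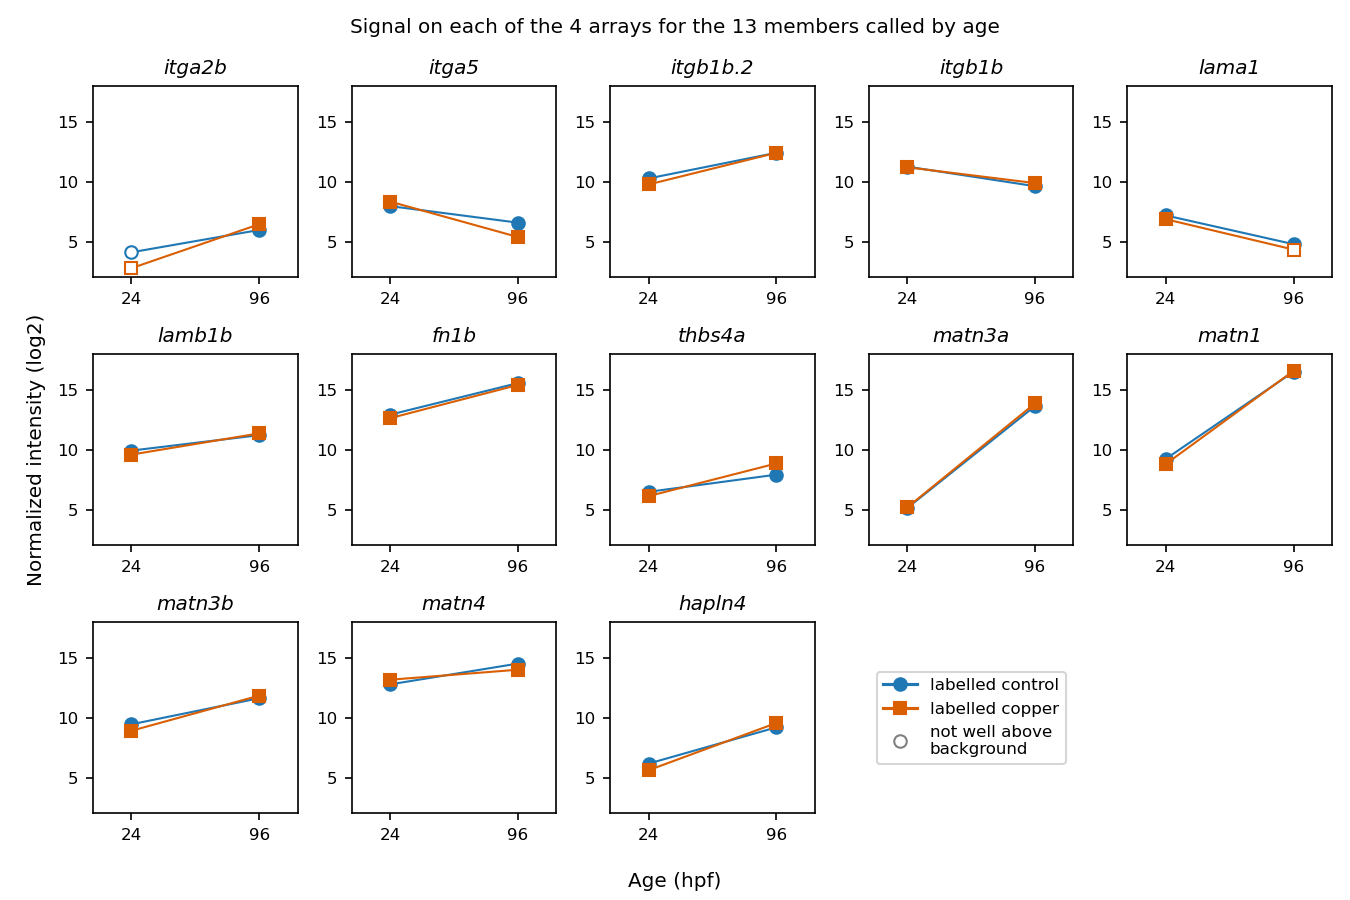
Normalized intensity (log2, y axis) of the 13 members called by age on each of the 4 arrays, against age in hpf. Circles are arrays labelled control, squares arrays labelled copper, and open symbols readings not well above background. In each panel both 96 hpf readings lie on the same side of both 24 hpf readings, and the matn3a and matn1 lines are the steepest.

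Of the 2 fibronectin paralogs, fn1b rose and fn1a was not called. Fn1b read 12.92, 12.63, 15.57 and 15.41, with arrays of an age close together and the ages far apart. The difference was 2.71 ± 0.26, or 6.55-fold (adjusted p = 6.19e-05 by limma), and its 4 probes ranged from 2.25 to 2.71. Fn1a, which is known in zebrafish for the migration of heart precursors, read 11.95, 12.44, 12.49 and 11.92. Its ages overlapped fully, with a difference of 0.01 ± 0.37 (adjusted p = 0.990) and -0.55 on its second probe. That value had no settled sign, being -0.05 under 75th-percentile scaling and -0.27 for the mean of its probes. Among fibronectin-related and other RGD or plasma glycoproteins, 14 of 21 listed genes were measured. By limma 11 rose and 0 fell (17.3% and 15.1% of all genes). At an unadjusted p under 0.05 there were 12 higher and 0 lower (21.9% and 22.0% of all genes). Osteopontin (spp1) rose by 3.18, vitronectin vtna by 2.72 and von Willebrand factor (vwf) by 1.82. The connective tissue growth factor paralog ccn2b was not well above background at 24 hpf and rose at least 2.40-fold. It passed the detection filter only through the 96 hpf arrays.

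Elastin elna, the core protein of elastic fibres, read 7.71, 6.85, 6.66 and 6.14, and its difference of -0.88 ± 0.49 was not called (adjusted p = 0.205). Fibrillin fbn2b, a microfibril protein that zebrafish need for notochord and fin fold shape, read 6.21, 8.71, 7.08 and 6.54. Here a single array, the 24 hpf one labelled copper, stood above the other 3. The age difference was -0.65 ± 0.68 (adjusted p = 0.506), and it was 0.59 without that array and -1.90 without the 24 hpf array labelled control (adjusted p = 0.0347). Elastic fibre and microfibril partners went both ways, with 12 of 31 measured, 3 higher, 2 lower and a median of 0.07. Of all genes 17.3% were higher and 15.1% lower. The copper-dependent crosslinking enzyme loxa rose by 6.91 and fibulin fbln5 by 2.65, while the fibulins efemp2b and efemp2a fell by 2.98 and 2.33.

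All 4 thrombospondins on the array were measured, and 1 was called, as higher (17.3% of all genes were). Thbs4a read 6.48, 6.12, 7.92 and 8.85, with no overlap between ages. It rose 4.24-fold (2.09 ± 0.52, adjusted p = 0.0127 by limma), on 1 probe, and by 1.49 under normexp. The call was lost without the 24 hpf array labelled copper (adjusted p = 0.0625) and without the 96 hpf array labelled copper (adjusted p = 0.0967). Its paralog thbs4b, known in zebrafish for muscle attachment to tendon, read 12.36, 12.63, 13.38 and 13.24. Both 96 hpf arrays were higher, but the difference of 0.81 ± 0.31 did not pass (adjusted p = 0.0730). Thbs3a and thbs3b differed by 0.67 and -0.23.

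Among the laminin chains lama1 alone was called lower and lamb1b alone higher, beside 15.1% lower and 17.3% higher of all genes. Of the alpha chains, lama1 fell, and lama4 and lama5 were not called. Lama1, an alpha chain of early embryonic basement membrane, read 7.18, 6.87, 4.78 and 4.32, the last not well above background. It fell by 2.48 ± 0.51, a fitted 5.56-fold (adjusted p = 0.00520 by limma), on its 1 detected probe. Under normexp it was still called, but it fell by 1.095. Lama5, a chain of epidermal and fin fold basement membrane, read 14.65, 14.21, 14.32 and 14.09, with overlapping ages and a difference of -0.22 (adjusted p = 0.556). Lama4, a chain of vascular basement membrane, read 10.57, 10.93, 11.41 and 11.34. Its 96 hpf arrays were both higher, by 0.62 ± 0.38 (adjusted p = 0.246).

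Of the 4 beta chains measured, lamb1b rose and the other 3 were not called. Lamb1b read 9.92, 9.59, 11.22 and 11.37, a rise of 1.53 ± 0.40 or 2.90-fold (adjusted p = 0.0162 by limma) on 1 probe, which lost its call without the 96 hpf array labelled copper (adjusted p = 0.0628). Its paralog lamb1a went the other way without passing the test. Lamb1a read 12.29, 12.59, 11.87 and 11.60, a difference of -0.71 ± 0.35 (adjusted p = 0.152), with -0.79 and -1.08 on its other probes. Lamb4 lies next to lamb1a in the RefSeq gene order, with 0 protein-coding genes between them, and differed by 0.63 on its brightest probe and -0.17 on its other one. Lamb2 differed by 0.39. The gamma chain lamc1 read 10.08, 12.16, 10.48 and 10.75, so that the 24 hpf array labelled copper stood apart from the other 3. Its age difference of -0.51 ± 0.47 was not called (adjusted p = 0.457), and without the 24 hpf array labelled control it was -1.55 (adjusted p = 0.0322), without the 24 hpf array labelled copper 0.53. Nidogen nid1b, named here through a non-coding RefSeq record, read 8.03, 9.79, 9.74 and 8.86 and had overlapping ages (0.39 ± 0.60).

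Beside the fall of lama1, 4 of 5 measured notochord markers fell (15.1% of all genes did). Among them were cav1 by 2.63, noto by 2.61 and tbxta by 1.97, and shha was at -0.22. The summed level of the 5 markers was 13.72 and 13.59 at 24 hpf and 13.13 and 12.60 at 96 hpf. Their part in the lama1 difference was not tested. Other basement membrane and Fraser complex genes had a median of -0.60, with 14 of 27 measured, 4 lower and 1 higher. Of all genes 15.1% were lower and 17.3% higher. Frem2a was not well above background at 96 hpf, passed the detection filter only through the 24 hpf arrays and fell at least 2.37-fold. Frem3 fell by 1.77, agrin (agrn) by 1.51 and dystroglycan (dag1) by 1.27, and the collagen-binding protein sparc rose by 0.86.

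Of 6 measured integrin alpha chains, 1 was higher and 1 lower, near the shares of all genes (17.3% higher and 15.1% lower). Itga5, which with a beta-1 chain forms the main fibronectin receptor, read 7.96, 8.34, 6.58 and 5.38. Both 96 hpf arrays were lower, and they also lay apart from each other. It fell by 2.17 ± 0.54 or 4.51-fold (adjusted p = 0.0130 by limma), on 1 probe, and by 1.46 under normexp. The drop was 1.38 between the arrays labelled control and 2.96 between those labelled copper. The call was lost without the 24 hpf array labelled control (adjusted p = 0.0517), without the 24 hpf array labelled copper (0.0823) and without the 96 hpf array labelled copper (0.0969). Itga2b, the alpha chain of the fibrinogen receptor of thrombocytes, the fish counterpart of platelets, read 4.10, 2.77, 5.97 and 6.45, and neither 24 hpf reading was well above background. It was at least 4.73-fold higher at 96 hpf, against the lowest signals that counted as above background (adjusted p = 0.00687 by limma). It passed the detection filter only through the 96 hpf arrays, so this p-value is not independent of the filter. Under normexp it was still called, but the fitted difference was 0.86, below that bound. The thrombocyte markers nfe2 and gp1bb, the 2 of 7 that were measured, fell by 1.46 and 1.26, and their summed level was 10.72 and 10.43 at 24 hpf and 9.55 and 8.97 at 96 hpf. Their part in the itga2b difference was not tested.

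The other 4 alpha chains were not called. Itga6b, a laminin receptor chain that pairs with itgb4 in hemidesmosomes, read 12.22, 11.91, 12.77 and 13.03 (0.83 ± 0.33, adjusted p = 0.0844). The collagen receptor chain itga11a differed by 0.90 ± 0.37 (adjusted p = 0.0920) and on its other probes by 0.76 and 0.59, and it was called without the 24 hpf array labelled copper (1.17, adjusted p = 0.0488). The ages of both genes did not overlap, with the 96 hpf arrays higher. Itga3b, a laminin receptor chain needed for the zebrafish fin fold, read 7.48, 7.19, 6.49 and 6.06 (-1.06 ± 0.49, adjusted p = 0.128). Itgav, the alpha chain of vitronectin receptors, read 8.26, 7.86, 8.04 and 7.66 with overlapping ages (-0.21 ± 0.46, or 0.018 under 75th-percentile scaling).

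The beta-1 paralogs itgb1b, itgb1b.2 and itgb1b.1 are neighbours in the RefSeq gene order, with 0 protein-coding genes between them, and they differed in direction. Itgb1b read 11.26, 11.21, 9.62 and 9.88. It fell by 1.48 ± 0.40 or 2.79-fold (adjusted p = 0.0183 by limma), and by 1.94 on its second probe. Without the 96 hpf array labelled control its adjusted p was 0.0529. Itgb1b.2 read 10.27, 9.77, 12.42 and 12.42, the opposite order of ages. It rose by 2.40 ± 0.38 or 5.27-fold (adjusted p = 0.00118), on 1 probe. Itgb1b.1 read 4.03, 6.55, 6.37 and 6.31, where the 24 hpf array labelled control was not well above background and stood below the other 3. The age difference of 1.05 ± 0.65 was not called (adjusted p = 0.252), and it was 2.31 (adjusted p = 0.0267) without the 24 hpf array labelled copper and -0.21 without the 24 hpf array labelled control. Whether probes of these close paralogs bind each other's transcripts was not tested.

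The remaining beta chains were not called. Itgb5, a partner of itgav, read 10.54, 10.41, 11.25 and 11.14 and was higher at 96 hpf on all 4 of its probes, by 0.56 to 0.91 (0.71 ± 0.38 on the brightest, adjusted p = 0.188). Itgb4 read 7.61, 7.94, 8.17 and 8.17 and differed by 0.40 and, on its second probe, -0.30. Itgb3a, the partner of itga2b on thrombocytes, read 6.79, 6.59, 6.32 and 6.33 (-0.36 ± 0.49, adjusted p = 0.625). The 2 integrin-named genes that encode no receptor chain, the beta-1 tail binding protein itgb1bp1 and the integrin beta-like itgbl1, differed by 0.37 and 0.46. Of the intracellular adhesion machinery, 22 of 33 listed genes were measured, 1 rose, 4 fell and the median was -0.23. Of all genes 17.3% rose and 15.1% fell. The parvin parvaa fell by 2.13 and the kinase src by 1.29, and paxillin pxna rose by 1.07. The kindlin fermt3b and talin tln2a were not well above background at 96 hpf and fell at least 2.45-fold and 1.65-fold. Both passed the detection filter only through the 24 hpf arrays.

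The comparison at 24 hpf asks how the array labelled copper differed from the array labelled control after a day. The laminin gamma chain lamc1, nidogen nid1b, fibrillin fbn2b, the link protein hapln1a and the integrin chain itgb1b.1 were higher in the array labelled copper, by at least 1.58 on the log2 scale. With 1 array in each group there is no replicate check and no p-value. Of 38 members well above background on either array, 5 were higher by 2-fold or more (3.09% of all genes) and 0 were lower (5.86% of all genes). The members' median was -0.12 and that of all genes -0.26, with 15 members (39.5%) above 0 and 21 below, while 28.6% of all genes lay above 0. Over all genes, 34.5% of those past 2-fold were higher. With 75th-percentile scaling 67.4% were, and with normexp background correction 48.7%. The members' counts were 5 and 0 under the former and 4 and 0 under the latter. Their median turned sign to 0.085 with 75th-percentile scaling, against -0.27 for all genes, and was -0.094 with normexp, against -0.21.

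Fbn2b read 6.21 in the array labelled control and 8.71 in the array labelled copper, a difference of 2.49 or 5.63-fold on its 1 detected probe. In the authors' deposited table, with coordinates on Zv9, that probe lies at chr22:4036254-4036401. Under normexp the difference was 1.75. Itgb1b.1 read 4.03, not well above background, and 6.55, which is at least 4.52-fold against the lowest signal that counted as above background. Under normexp it was 0.97 and no longer past 2-fold. Nid1b read 8.03 and 9.79 (3.39-fold) and hapln1a 6.80 and 8.39 (a difference of 1.58), on 1 probe each. Under normexp their differences were 1.53 and 1.21.

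Lamc1 was the one member past 2-fold with several probes, and these went the same way by different amounts. The brighter probe, at chr2:35699717-35699776 (Zv9, from the authors' deposited table), read 10.08 and 12.16, a difference of 2.08 or 4.22-fold. The dimmer probe, at chr2:35694019-35694078 in the same table, read 3.10, not well above background, and 8.38. Its measured difference was 5.28, and it was higher by at least 4.01 on the log2 scale. At 96 hpf the brighter probe differed by 0.28 between the arrays. The lamb1a and lama1 chains, which join lamc1 in a laminin trimer, were closer. Lamb1a differed by 0.30, 0.48 and 1.65 from its brightest to its dimmest probe, and lama1 by -0.32.

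Among the members below 2-fold, elna was lower by 0.86 and thbs3b by 0.79 in the array labelled copper. Fn1a was higher by 0.49 and 0.77 on its 2 probes, and itga5 by 0.38. The matrilins, all of which rose with age, differed by -0.54 to 0.39. The partner lists had 22, 14, 12, 17 and 13 genes read at 24 hpf. Of these genes, 4 were higher by 2-fold or more (3.09% of all genes). They were emilin1b (by at least 2.42), the basement membrane collagen col4a5 (1.61), the alpha-actinin actn4 (1.07) and vinculin vcla (1.06). The 4 that were lower (5.86% of all genes) were the kindlin fermt3b (by 1.58), loxl2a (1.22), the lectican bcan (1.12) and loxa (1.01). The 6 cartilage markers had a median of 0.45 at 24 hpf, with col2a1a higher by 2.62, col9a1a by 1.08, sox5 by 0.49 and col11a2 by 0.42, and sox9a and ucmaa lower by 0.86 and 0.84.

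**Figure D3:**
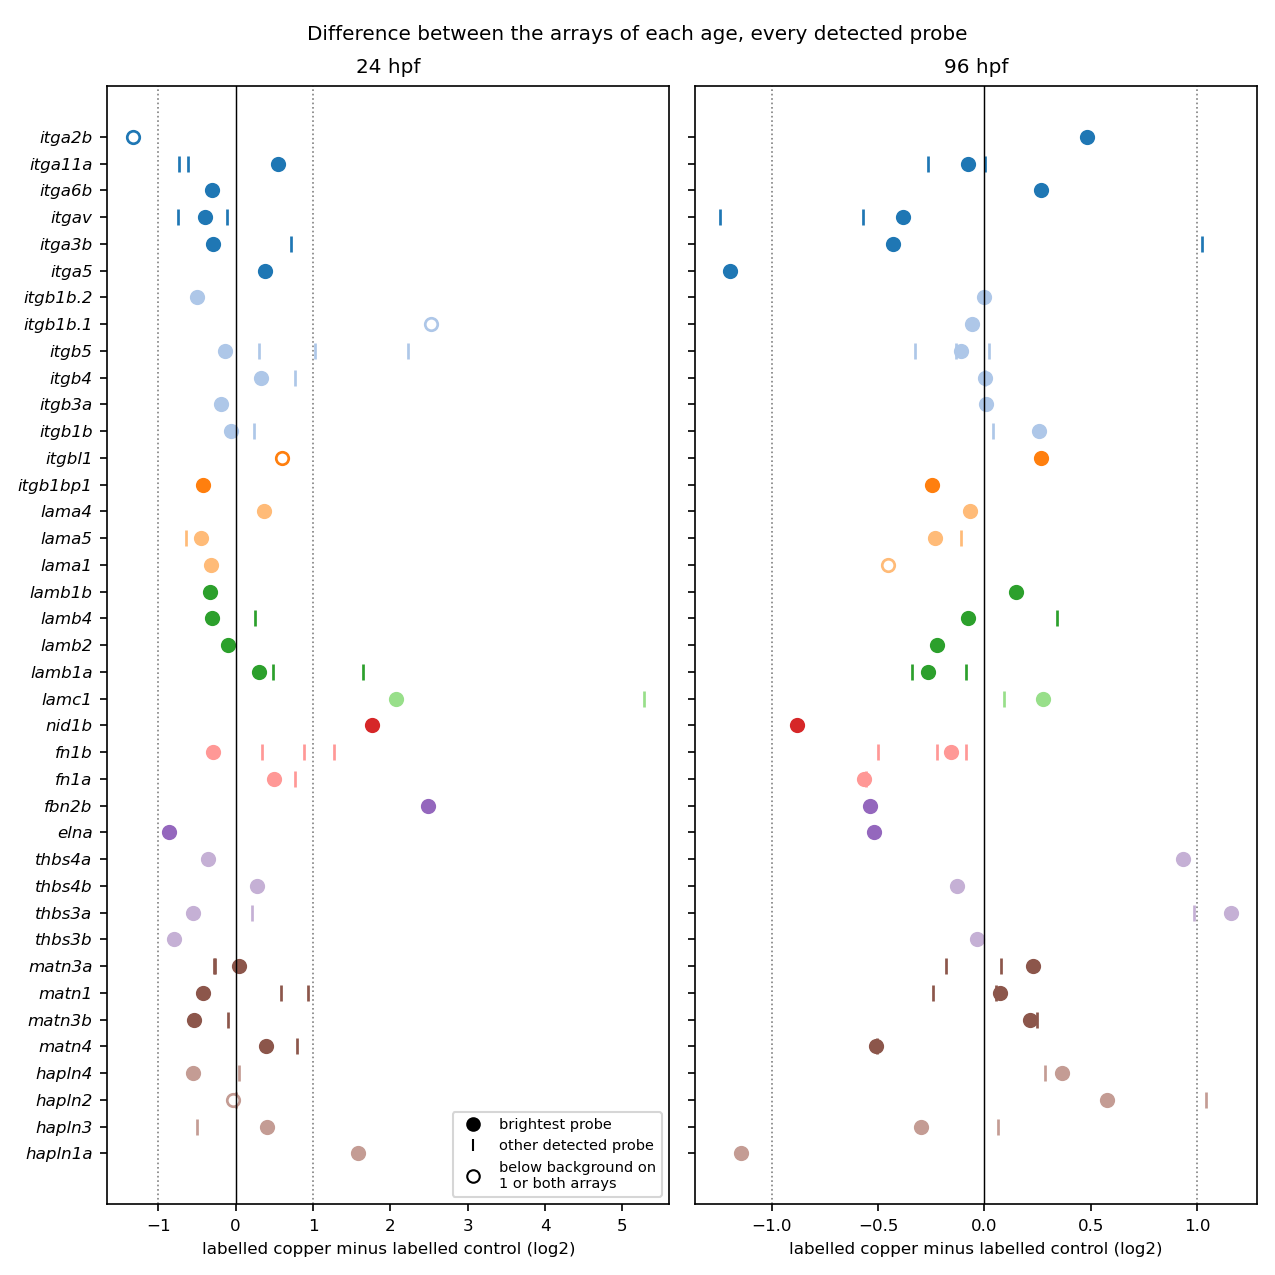
Difference between the array labelled copper and the array labelled control (log2, x axis) at 24 hpf and at 96 hpf for the 39 members. Filled circles are the brightest probe, ticks other detected probes, open circles brightest probes not well above background on 1 or both arrays (at their measured difference), and dotted lines mark 2-fold. The x axes differ in range. At 24 hpf probes reach 5.28 (lamc1) and at 96 hpf all lie within 1.24 of 0.

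Probes of 1 gene often disagreed at 24 hpf. Several probes of a gene were well above background throughout the 4 arrays in 17 members. Their differences were spread over 2-fold or more in 6 of these (35.3%) at 24 hpf and in 1 (5.88%) at 96 hpf. For all genes of this kind the shares were 27.7% of 6289 and 2.43%. Fn1b gave -0.29, 0.34, 0.88 and 1.27 from its brightest to its dimmest probe, and itgb5 gave -0.13, 0.31, 1.03 and 2.23, the last being at least 1.33 since the array labelled control was not well above background there. In matn1 the order was -0.43, 0.59 and 0.94. In these genes the difference grew from bright to dim probes. The dimmest probe exceeded the brightest in 13 of 17 members at 24 hpf and in 11 of 17 at 96 hpf. Over all genes this was so in 82.1% and 32.9%. The median of dimmest minus brightest over the 17 members was 0.44 at 24 hpf and 0.009 at 96 hpf. Of the 20 members with several detected probes, 5 were higher on all of them at 24 hpf, 3 lower on all and 12 mixed. Among all probes, the share higher by 2-fold or more at 24 hpf went from 15.1% among the dimmest 7206 to 4.22% among the brightest 7205, and the share lower from 11.3% to 0.916%. The part of signal level in the members' differences was not tested. Of the 5 members past 2-fold, lamc1 alone had more than 1 detected probe.

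**Figure D4:**
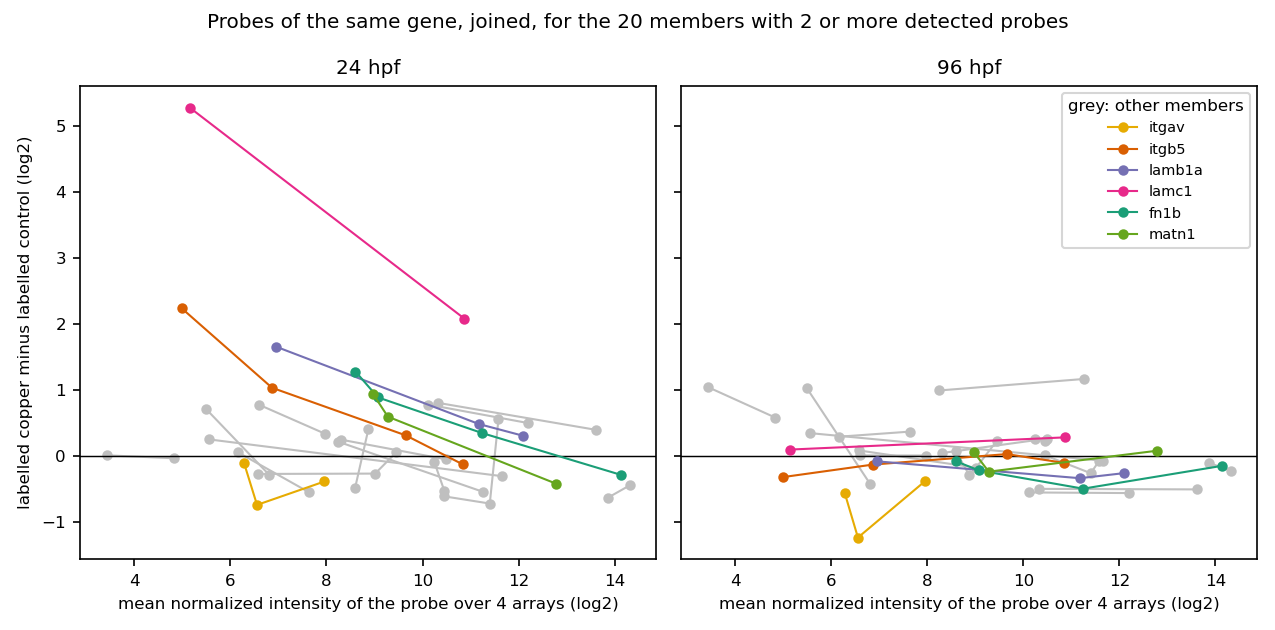
Difference between the array labelled copper and the array labelled control (log2, y axis) for each detected probe against its mean normalized intensity over 4 arrays (log2, x axis), at 24 and 96 hpf, for the 20 members with several probes. Lines join probes of 1 gene. At 24 hpf the lines of lamc1, itgb5, lamb1a, fn1b and matn1 fall from dim to bright probes, and at 96 hpf they are nearly flat.

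At 96 hpf the same comparison was made in older larvae. The thrombospondin thbs3a was higher in the array labelled copper, and the fibronectin receptor chain itga5 and the link protein hapln1a were lower. No other member reached 2-fold on its brightest probe. Of 39 members, 1 was higher by 2-fold or more (5.51% of all genes) and 2 were lower (1.67% of all genes), with a median of -0.08 against -0.05 for all genes. Again there is no replicate check. Thbs3a read 11.01 in the array labelled control and 12.17 in the array labelled copper, a difference of 1.16 or 2.24-fold, and its second probe gave 0.99. Itga5 read 6.58 and 5.38, or 2.30-fold lower, and hapln1a 7.70 and 6.55, or 2.21-fold lower, on 1 probe each. Under normexp correction itga5 was at -0.58 and hapln1a at -0.82, so that neither was past 2-fold.

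Thbs4a was just short of 2-fold at 96 hpf, higher by 0.93, and nid1b was lower by 0.88. Fn1a was lower by 0.57 and 0.56 on its 2 probes and matn4 by 0.51 and 0.50, and the other matrilins were within 0.23 on their brightest probes. Some dimmer probes were past 2-fold where the brightest was not. These were itgav (-1.24, at chr9:11873755-11873814 on Zv9 in the authors' deposited table, against -0.38 on its brightest), itga3b (1.02 against -0.43) and hapln2 (1.04 against 0.58). Laminin chains and beta integrins were close between the arrays. On the brightest probe the former lay between -0.27 and 0.28, apart from lama1, which was too dim in the array labelled copper to be well above background, and the latter between -0.11 and 0.26. The partner lists had 20, 13, 12, 17 and 14 genes read at 96 hpf. Of these genes, spp1 was higher by 1.44, ucmaa by 1.36 and bgna by 1.28, and efemp2a was lower, at 7.97 and 6.76. No other partner gene reached 2-fold, while 5.51% of all genes were higher and 1.67% lower by that much. The 6 cartilage markers, ucmaa among them, had a median of -0.46 at 96 hpf. Col2a1a, col9a1a, sox9a, col11a2 and sox5 were at -0.62, -0.59, -0.47, -0.45 and -0.02.

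Over both ages together 0 members were called for copper by limma (0.0% of all genes). At an unadjusted p under 0.05 in the same limma fit there was 1 of 39 members, lamc1, with a fitted difference of 1.18, and 187 of 12332 genes. The smallest adjusted p among members was 0.9999. This test asks about the mean change by copper label over the ages, and the changes at the ages need not be alike. Hapln1a was the one member past 2-fold at both ages, in opposite directions, higher by 1.58 at 24 hpf and lower by 1.15 at 96 hpf in the arrays labelled copper. Fbn2b (2.49 and -0.54) and nid1b (1.76 and -0.88) also had opposite signs at the ages, and lamc1 (2.08 and 0.28) the same one. No test compares these changes gene by gene, since each rests on 1 pair of arrays.

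In the authors' deposited table, members appear as 11 probes of 9 genes at 24 hpf and as 6 probes of 6 genes at 96 hpf, with the sign that the file names give. At 24 hpf the authors' deposited table lists lamc1 at 38.9-fold and 4.22-fold, itgb1b.1 at 5.75-fold, fbn2b at 5.63-fold, itgb5 at 4.70-fold and 2.04-fold, lamb1a at 3.14-fold and fn1b at 2.42-fold, all as lower in the copper sample. The fn1b, itgb5 and lamb1a probes in the authors' deposited table are dimmer ones of genes whose brightest probe differed by less than 2-fold. Itga2b stands in the authors' deposited table at 2.49-fold higher in the copper sample at 24 hpf, on a probe at chr3:21563614-21563673 that was not well above background on either array of that age here. At 96 hpf the authors' deposited table lists itgav, itga5 and hapln1a as 2.37-fold, 2.29-fold and 2.21-fold higher in the copper sample, and thbs3a, hapln2 and itga3b as 2.24-fold, 2.06-fold and 2.03-fold lower.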

How the data were processed

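Whole zebrafish embryos were profiled on 4 one-colour Agilent arrays, 1 per group. RNA came from a TRIzol extraction, per the labels' protocols. Labelling (Quick Amp, version 5.7) and image reading (Feature Extraction 11.0.1.1) are as the series' design text states. The scanner files as deposited hold a processed intensity per spot, which per the file headers is background-subtracted and not normalized between arrays, and deposited flags for signal above background and outliers. By the same text the authors used GeneSpring GX 11.5.1 for quantile normalization, required detection in 2 or more of the 4 samples and filtered by fold change. The authors' deposited table gives log2 fold changes, absolute fold values (a ratio) and probe positions on Zv9. Its 16 columns of per-sample values were not used. Per the file headers the arrays share 1 slide and scan.

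Here control spots and flagged outliers were left out (34 of 43603 probes lost all spots), log2 processed intensity was averaged per probe and quantile-normalized over the arrays, and probes well above background on at least 2 arrays were kept. Of 43569 probes, 25957 were named for 13366 genes through RefSeq accessions, using a table of assembly GRCz12tu for names and neighbours only. A gene is its detected probe of highest mean signal. The median SD among repeated spots of a probe was 0.06 to 0.12 (log2) on an array, which covers printing and scanning only, and the number of arrays limits the precision. A probe well above background on 1 array of an age, or on the arrays of 1 age, has a bound, computed against the higher of its own dim value and the lowest value above background on each dim array. Some probes that were not well above background read higher than that lowest value. The bounds, given as "at least", are therefore nominal. Age and copper were fitted with limma 3.58.1 (R 4.3.3, lmFit, eBayes with trend). The age part was run on simulated data with independent noise and no copper effect, so the copper part was not tested there. Other steps used Python 3.11.15, pandas 2.3.3, numpy 2.4.6 and matplotlib 3.10.9.

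The members and lists were chosen with earlier results of these data known. Values on every array are given for members called by age, members past 2-fold at an age, and a fixed set of well-known members. Outside the members, up to 4 called genes of each list are named in each direction. The partner genes past 2-fold at one age and the marker genes that were not called were chosen after their values were seen. Alternatives were 75th-percentile scaling, normexp (offset 50) on median spot and background intensity, the mean of detected probes, detection on 4 arrays or none, eBayes without trend, age alone, each array left out, folds of 1.5 and 4, and the file names' treatment. Sequences were not used here.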

Additional observations from a re-analysis of the deposited data

Results flagged for a closer look

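One member was past 2-fold in opposite directions at the ages. Hapln1a, the link protein, differed by 1.584 (log2) at 24 hpf and by -1.146 at 96 hpf, labelled copper minus labelled control. It was picked out because the 2 pairs of arrays moved opposite ways, and the difference between ages was not tested, since each age has 1 array per label. The value rests on 1 probe, and under normexp background correction it was 1.21 and -0.82. If the file names give the right treatment, both signs turn.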

How the results depend on the processing

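The counts by age kept within 1.5 times of 10 higher and 3 lower under every alternative, at 8 to 12 higher and 2 to 4 lower, and at 8 to 11 and 2 to 4 when each array was left out in turn. Fn1b, hapln4, itga2b, itgb1b.2, lama1, matn1, matn3a and matn3b were called under all 9 alternatives run per gene. Of these, itga2b passed the detection filter only through the 96 hpf arrays, where it is high. Members higher by 2-fold at 24 hpf (5) were 3 at 4-fold and 0 by the file names; lower (0) were 2 without a filter, 2 at 1.5-fold and 5 by the file names. At 96 hpf, members higher (1) were 2 at 1.5-fold, 0 at 4-fold, 2 by the file names and 0 when every detected probe had to pass, an alternative chosen after seeing the data. Members lower (2) were 0 under normexp, 0 at 4-fold and 1 by the file names. Copper over both ages gave 0 calls under every alternative fitted.

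Signs of age differences that turned all belonged to members not called. Fn1a was -0.050 under 75th-percentile scaling, -0.095 under normexp and -0.27 for the mean of probes. Hapln3 was 0.14 under 75th-percentile scaling and 0.32 for the mean of probes, and itgav was 0.018 under 75th-percentile scaling. With 1 array left out, the range was -1.90 to 0.59 for fbn2b, -0.28 to 0.29 for fn1a, -1.26 to 0.32 for hapln1a, -0.23 to 0.17 for hapln3, -0.21 to 2.31 for itgb1b.1, -0.44 to 0.0045 for lama5, -1.55 to 0.53 for lamc1, -0.49 to 1.28 for nid1b and -0.63 to 0.17 for thbs3b. Itga6b and thbs4b passed with age alone in the fit (adjusted p = 0.0483 and 0.0406 by limma), and thbs4b under normexp (0.0496). The causes were not tested.

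Of age differences per member, 315 kept direction and side of the threshold, 19 turned sign, 8 gained and 9 lost a call. Differences within an age were rerun under 75th-percentile scaling, normexp and the mean of detected probes. At 24 hpf 59 stayed within 0.139 (log2) of the value given above and 55 moved further. At 96 hpf 99 stayed and 18 moved. Fits with an array left out use age alone and assume that the lone array varies like the pair at the other age. No paired analysis was possible because the groups share only 1 replicate number. Dim probes limit what can be read, since quantile scaling forces like distributions on arrays of unequal signal.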
